A study of Mus musculus with 8 samples.

Results

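The response of plasma carrier genes of the liver to endoplasmic reticulum stress (ERS) was examined by the position of acetylated chromatin around 8 genes chosen by name, Alb, Afp, Afm, Gc, Ttr, Rbp4, Ahsg and Fetub, out of 12261 gene symbols with a transcription start site (TSS) in a region of the deposited lists. The 8 genes lie at 5 loci, since Alb, Afp and Afm are one cluster and the windows around Ahsg and Fetub overlap. Together, 73 of the 32196 listed regions had at least 1 base within 100 kb of these loci. Mouse primary hepatocytes (MPH) had been isolated from wild-type adult male mice, labelled C57Bl6 and given as C57BL/6J in the methods, cultured without serum in William's medium and exposed for 4 h to 1 µM thapsigargin, which triggers ERS by blocking calcium uptake into the endoplasmic reticulum, or to its vehicle, 0.04% DMSO. H3K27ac, a histone mark of active promoters and enhancers, was profiled by ChIP-seq in 3 libraries per treatment with 1 input library per treatment. The model is thus one of acute, pharmacological stress in cells of a healthy liver taken out of the animal.

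The authors called H3K27ac regions on pooled libraries, tested them between treatments with the preparation as a block, and sorted them into 3 classes. A region was UP or DOWN upon ERS where its false discovery rate (FDR) was at most 0.05 and bins with more signal were at least 2 times, or at most 0.5 times, as many as bins with less. It was called unchanged where the FDR was above 0.05, which does not show that its signal was equal in both treatments. Regions with a mixture of both kinds of bins were discarded by the authors, so a stretch without a listed region need not be a stretch without H3K27ac. The lists hold positions and no signal. Neither the size of a change nor its spread over replicates can therefore be given, and no test was run here. The depth per library is unknown.

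The albumin family consists of abundant plasma proteins that carry fatty acids, bilirubin, hormones, vitamins and drugs. Its genes sit next to each other in the genome and arose by duplication. Alb is the main protein gene of the adult hepatocyte, Afp is its fetal counterpart and is silenced after birth, Afm encodes afamin, a vitamin E and Wnt carrier, and Gc encodes the vitamin D binding protein. Transthyretin (Ttr) carries thyroxine and, in a complex with retinol binding protein 4 (Rbp4), retinol. Ahsg and Fetub encode fetuin-A and fetuin-B, cystatin-type proteins of plasma, of which the first keeps calcium phosphate in solution and the second inhibits the protease that hardens the egg coat. Both the Alb promoter and enhancers far upstream of Alb and Afp are textbook models of liver-specific transcription driven by FOXA, C/EBP and the D-box factors.

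The labelled cell type was checked by its markers. A TSS lay in a region for 11 of 12 hepatocyte markers, 1 of 8 Kupffer cell and leukocyte markers (Cd68), 2 of 8 endothelial markers (Stab2 and Oit3), 0 of 7 stellate and mesenchymal markers and 2 of 7 cholangiocyte markers (Sox9, which was UP, and Spp1). The study's code as printed orders the treatments so that its contrast reads as DMSO minus thapsigargin, which leaves a doubt about the sign behind the names UP and DOWN. The direction of the classes was therefore checked with 10 targets of the unfolded protein response picked for this purpose, among them Hspa5, Ddit3, Herpud1 and Trib3. A TSS of 10 of these 10 genes lay in an UP region, against 21.4% of all genes with a listed start site. UP was thus taken to mean more H3K27ac with thapsigargin. The study also reports that genes induced by ERS were enriched at its UP regions, and that repressed genes were linked more to its DOWN regions. Of the hepatocyte markers themselves, Apoa1, Apoc3, Fgb and Serpina1a were DOWN and Tdo2 and Asgr1 were UP at a TSS. The other 5 with a TSS in a region were unchanged. Over all genes with a listed start site, 8.91% were DOWN and 21.4% were UP.

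At their start sites most of the carrier genes were not called changed. Of the 8 genes, 7 had a TSS in a region. Ahsg was the 1 gene with a TSS in a DOWN region, while 8.91% of all genes with a listed start site were DOWN there. The start site was UP for none of the carriers, against 21.4% of all genes. Alb, Afm, Gc, Ttr, Rbp4 and Fetub had theirs in unchanged regions, and Afp had none. With 7 genes, 1 DOWN and 0 UP calls are close to what the shares over all genes give. Over the gene bodies, 13 regions were counted, of which 11 were unchanged, 1 was DOWN (Ahsg) and 1 was UP (Gc). The start site regions are among them. The shares over all regions were 10.5% DOWN and 17.1% UP.

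Alb spans chr5:90460897-90476602 on the plus strand of mm10. Its 3 annotated TSSs all lay in 1 unchanged region, chr5:90460218-90468476. At 8259 bp this region was wider than 96.6% of the regions that hold a TSS, and it reached from 0.7 kb upstream of the first TSS to 7.6 kb into the gene, over 48.3% of the gene body. A second region in the Alb gene, of 374 bp and also unchanged, overlapped an exon near the 3' end. The nearest DOWN region began 10.3 kb upstream of the first TSS. It was 3789 bp wide, lay at chr5:90446808-90450596 between genes, and was wider than 93.4% of the regions without a TSS. Another DOWN region of 2730 bp, chr5:90413244-90415973, lay between 47.7 and 44.9 kb upstream. Between both DOWN regions stood 5 unchanged regions of 727 to 3166 bp. The nearest UP region was 97.5 kb away.

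The promoter of Alb and the middle of the DOWN region nearest to it are shown because the unchanged start site and the DOWN upstream region are the contrast at this gene. Promoters were taken from RefSeq (GRCm38.p6) as the 250 bases before the annotated start, on the strand of the gene, and regions as 240 bases centred on their middle, on the plus strand. Capitals mark matches to any of 10 short motifs searched on both strands: TATA box (TATAAA), the box of the letters CCAAT, FOXA (TGTTTAC), HNF4 (CAAAGTCCA), C/EBP (TTGCNNAA), D-box (TTATGTAA), NFIL3 (TTACGTAA), ATF4/CHOP (TGATGCAA), a half-site of the ERS response element (CCACG) and AP-1 (TGA and TCA with 1 base between). The D-box and NFIL3 letters differ at 1 position, so the same 8 bases never match both. The Alb promoter is chr5:90460620-90460869, and the middle of the DOWN region is chr5:90448582-90448821.
Alb promoter: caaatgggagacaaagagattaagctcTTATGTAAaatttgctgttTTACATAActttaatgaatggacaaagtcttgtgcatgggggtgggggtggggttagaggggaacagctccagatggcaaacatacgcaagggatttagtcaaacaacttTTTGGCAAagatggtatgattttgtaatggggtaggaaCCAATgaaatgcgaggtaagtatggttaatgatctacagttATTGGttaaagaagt
Alb upstream DOWN region: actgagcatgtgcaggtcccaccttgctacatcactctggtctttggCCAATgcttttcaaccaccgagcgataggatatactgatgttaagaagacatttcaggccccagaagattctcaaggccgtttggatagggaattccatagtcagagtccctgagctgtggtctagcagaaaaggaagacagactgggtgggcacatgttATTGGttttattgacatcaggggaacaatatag

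The Alb promoter held 2 D-box matches, 223 and 204 bases before the RefSeq start, where 0.812% of 32526 promoters of this length held any. The GENCODE start of Alb lies 27 bases downstream of the RefSeq start, and that of Afp 23 bases. It also held a C/EBP match at 94 bases (9.57% of promoters) and CCAAT boxes at 56 and 15 bases (33.8%). The D-box is bound by the PAR-bZIP factors, which include DBP, named after its binding to a D site of the albumin promoter. The 2 matches here were not shown to be that site, which need not match the letters searched. The middle of the upstream DOWN region held only CCAAT boxes, which occurred in 26.0% of the 32193 region middles. A match is a string of letters and was not tested for binding.

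Afp, at chr5:90490737-90508907 on the plus strand, was the 1 carrier gene without a region at any of its 5 TSSs or in its gene body. Its nearest region was a DOWN region, chr5:90487932-90488926, of 995 bp, which lay from 2805 to 1811 bp upstream of the first Afp TSS and 11330 bp past the end of Alb. This was the narrowest of the 7 DOWN regions around the carrier genes and below the median of 2229 bp for all DOWN regions. Only 9.35% of the 9805 protein-coding genes with a TSS in a region were nearer to a DOWN region than Afp was. The sequences of the Afp promoter (chr5:90490464-90490713) and of the middle of that region (chr5:90488309-90488548) are given because they set a start without a listed region beside the DOWN region next to it.
Afp promoter: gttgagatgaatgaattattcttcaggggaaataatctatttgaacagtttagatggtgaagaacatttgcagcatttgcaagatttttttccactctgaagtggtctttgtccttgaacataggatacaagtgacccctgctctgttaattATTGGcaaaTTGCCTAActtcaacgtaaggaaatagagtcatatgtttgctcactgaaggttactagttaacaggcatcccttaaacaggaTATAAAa
Afp upstream DOWN region: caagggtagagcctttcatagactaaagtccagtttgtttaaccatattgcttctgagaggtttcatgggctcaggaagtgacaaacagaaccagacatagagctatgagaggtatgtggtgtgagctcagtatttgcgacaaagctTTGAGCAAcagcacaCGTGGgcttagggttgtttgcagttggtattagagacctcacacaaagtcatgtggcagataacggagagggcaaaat

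The Afp promoter held a CCAAT box and a C/EBP match next to each other, which began 98 and 89 bases before the RefSeq start, and a TATA box that began at 7 bases. TATA boxes were found in 12.3% of promoters. The region upstream of Afp held a C/EBP match (10.8% of region middles) and an ERS response element half-site (21.5%).

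Afm spans chr5:90518932-90553543 on the plus strand. Both of its TSSs lay in an unchanged region of 1005 bp, chr5:90518197-90519201, which extended only 269 bp past the first TSS and was wider than 22.7% of the regions at a TSS. It was the narrowest start site region of the 7 genes that had one. A second unchanged region of 1779 bp overlapped an exon near the 3' end of Afm. The nearest DOWN region to an Afm TSS, the one upstream of Afp, was 30.0 kb away.

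Across the whole cluster the DOWN and the UP regions lay apart. Of the 25 regions within 100 kb of the Alb, Afp and Afm genes, 3 were DOWN (12.0%), 3 were UP (12.0%) and 19 were unchanged. Over all regions, 10.5% were DOWN and 17.1% were UP. The 3 DOWN regions stood between 47.7 kb upstream and 28.0 kb downstream of the Alb start, and the 3 UP regions all stood past the 3' end of Afm. When regions were joined across gaps of up to 12.5 kb, the gap used for super-enhancers, the Alb start site region became part of a cluster of 12 regions, chr5:90409266-90488926, with 3 DOWN, 9 unchanged and 0 UP regions. This cluster spanned 79661 bp, and only 0.325% of the 17523 clusters were wider. It ended upstream of Afp, so that the 9 regions past Afm (3 UP, 6 unchanged) fell in other clusters. With gaps of up to 5 kb the Alb start site region stood alone.

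**Figure D1:**
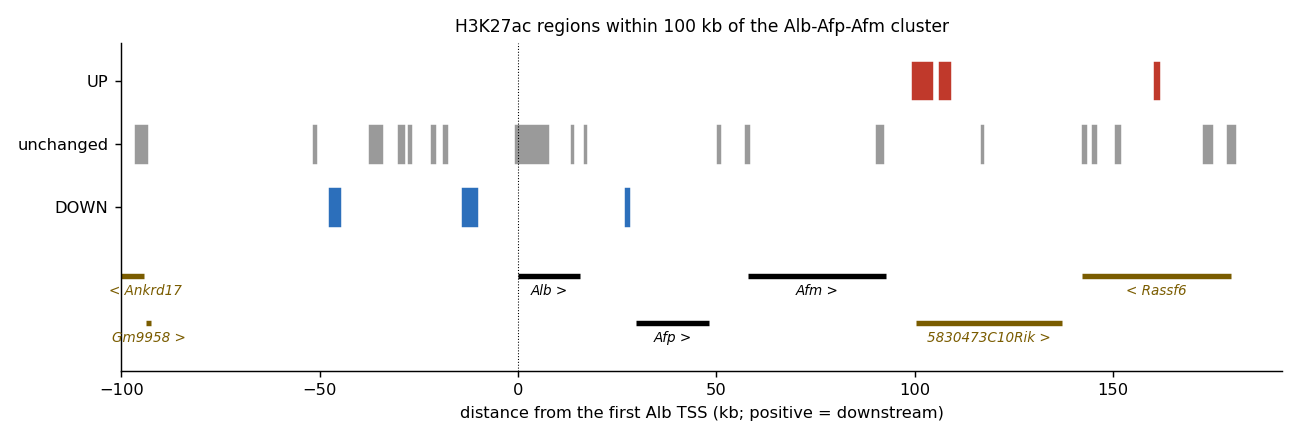
H3K27ac regions around Alb, Afp and Afm, drawn to scale by distance from the first Alb TSS (kb, x axis) and by class (rows), with the cluster's genes in black and other protein-coding genes with a TSS in a region in brown; arrowheads give the direction of transcription. The 3 DOWN regions lie between 47.7 kb upstream and 28.0 kb downstream of the Alb start, and the 3 UP regions lie past Afm.

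The first UP region began 6624 bp past the last base of Afm. At chr5:90560167-90565221 and 5055 bp wide, it held the TSS of 5830473C10Rik, which RefSeq names Albfm1, a further member of the albumin superfamily that is next in the cluster and was not among the 8 genes. The start site of this neighbor was therefore UP where those of Alb and Afm were unchanged. A second UP region of 2743 bp lay in the same gene, and the third, of 1068 bp, lay in Rassf6, whose own TSS was in an unchanged region of 2173 bp. On the other side of the cluster, Ankrd17 and Gm9958 had TSSs in an unchanged region of 3073 bp.

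Gc, on the same chromosome but outside of the window around Alb, is the albumin family member that stands alone. It spans chr5:89417522-89457898 on the minus strand. Of its 2 TSSs, the first lay in an unchanged region of 18385 bp, chr5:89446948-89465332, which ran from 7.4 kb upstream to 10.9 kb downstream of it. Of all unchanged regions, 8 were wider. The other TSS, internal to the gene, was 8673 bp from the nearest region. Just upstream of the start site region, across a gap of 928 bp, stood an UP region of 6961 bp, chr5:89466261-89473221, wider than 98.7% of the regions without a TSS. A second UP region, of 804 bp, lay in an intron 34.7 to 35.5 kb downstream of the first TSS. The only DOWN region in the window, 6893 bp at chr5:89341514-89348406, lay 69116 bp past the last base of Gc with no gene annotated over it. Of 16 regions around Gc, 1 was DOWN, 2 were UP and 13 were unchanged, among them a region of 429 bp at the start of the pseudogene Gm6366. Acetylation over the start of Gc and acetylation just upstream of it were thus given different classes, although both regions and another unchanged region of 1033 bp joined into 1 cluster of 28921 bp at gaps of either 12.5 kb or 5 kb.

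The Gc promoter (chr5:89457899-89458148, minus strand) and the middle of the UP region upstream of it (chr5:89469621-89469860) illustrate this pair.
Gc promoter: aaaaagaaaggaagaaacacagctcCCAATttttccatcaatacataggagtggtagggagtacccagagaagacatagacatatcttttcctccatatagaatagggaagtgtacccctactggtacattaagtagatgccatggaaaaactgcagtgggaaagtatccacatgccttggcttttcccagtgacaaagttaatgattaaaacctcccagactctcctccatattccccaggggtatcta
Gc upstream UP region: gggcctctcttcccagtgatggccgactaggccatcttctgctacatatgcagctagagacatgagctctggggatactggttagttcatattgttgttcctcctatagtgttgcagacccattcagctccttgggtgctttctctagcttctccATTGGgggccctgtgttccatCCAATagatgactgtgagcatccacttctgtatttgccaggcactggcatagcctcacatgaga

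A CCAAT box began 225 bases before the Gc start. The middle of the UP region held CCAAT boxes alone among the motifs. Neither stretch held a match to ATF4/CHOP or to the ERS response element half-site. The promoters of Alb, Afp, Afm and Gc, the 4 albumin family genes, had 0 to 2 CpG dinucleotides, against a median of 6 over all promoters. RefSeq promoters matched 7 of the 8 genes. That of Ttr was missing. The promoters of Afm, Fetub and Rbp4 are not printed.

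Ttr lies on chromosome 18 and Rbp4 on chromosome 19, and their products circulate as 1 complex. Both genes had an unchanged region at the start and an UP region upstream. Of the protein-coding genes with a TSS in a region, 69.2% had an UP region within 100 kb. Ttr, at chr18:20665280-20674321 on the plus strand, had its TSS in a region of 5284 bp that was wider than 90.4% of the regions at a TSS and also held the TSS of the antisense transcript Gm16090. A second unchanged region of 4188 bp lay in the gene, so that unchanged regions covered 76.6% of it. An UP region of 3882 bp stood 25.1 to 21.2 kb upstream, in Gm16090, and another of 2915 bp stood 95.2 to 92.3 kb upstream, in Dsg2. No DOWN region lay among the 10 regions within 100 kb of Ttr. The nearest was 199790 bp from its TSS, and Ttr was in this respect the farthest of the 8 genes.

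Rbp4, at chr19:38116629-38125281 on the minus strand, had 1 unchanged region of 7000 bp over its 4 TSSs, chr19:38120020-38127019, wider than 94.8% of the regions at a TSS and covering 60.8% of the gene. An UP region of 2833 bp, chr19:38133096-38135928, stood 10.6 to 7.8 kb upstream, in the neighboring gene Pde6c, a phosphodiesterase of cone photoreceptors. The protein-coding TSS nearest to this UP region was not that of Rbp4. The only DOWN region within 100 kb, 7496 bp wide, was in Myof, 87178 bp past the end of Rbp4. It was nearer to the Myof start, which lay in an unchanged region of 1133 bp, than to any carrier gene. The remaining 8 of 10 regions were unchanged.

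Ahsg, at chr16:22891277-22899449 on the plus strand, was the carrier gene with a DOWN start site. Its 8 TSSs all lay in a DOWN region of 25256 bp, chr16:22877001-22902256, which covered the whole gene, 14276 bp upstream of the first TSS and 2807 bp past its end. Only 8 DOWN regions were wider, and 18 regions of any class. On the upstream side the DOWN region ran over the last 2634 bp of Dnajb11, and it held the TSS of Gm30505, a transcript antisense to Ahsg. Regions of this width were often changed. Of the 207 regions of at least 10000 bp that hold a TSS, 81 were DOWN (39.1%), 64 UP (30.9%) and 62 unchanged (30.0%). The region over the Gc start, which is also in this group, was unchanged.

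Dnajb11, the gene just upstream of Ahsg, encodes ERdj3, a cochaperone of the endoplasmic reticulum. Its TSS, together with that of the divergent Tbccd1, lay in an UP region of 2158 bp, chr16:22856638-22858795. The first TSSs of Dnajb11 and Ahsg are 33432 bp apart, and 18205 bp without a listed region separated the UP region from the DOWN region. A chaperone gene and a carrier gene next to each other were thus marked in opposite directions.

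The Ahsg promoter (chr16:22891765-22892014), which lies within the DOWN region, is shown for comparison with that of Alb.
Ahsg promoter: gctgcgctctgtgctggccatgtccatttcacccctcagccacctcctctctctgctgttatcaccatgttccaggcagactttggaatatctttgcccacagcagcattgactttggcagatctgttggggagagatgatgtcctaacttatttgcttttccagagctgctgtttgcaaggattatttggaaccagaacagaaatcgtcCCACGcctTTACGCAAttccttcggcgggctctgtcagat

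It held a C/EBP match 32 bases and an ERS response element half-site 40 bases before the RefSeq start. Half-sites of this kind were present in 28.6% of all promoters. It had no D-box match.

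Fetub, at chr16:22918334-22939778 on the plus strand, had an unchanged region of 4436 bp over 5 of its 7 TSSs, chr16:22918416-22922851. The other 2, the most upstream, lay 82 and 34 bp outside of it. The region was wider than 86.8% of the regions at a TSS. The DOWN region over Ahsg ended 16.1 kb from the nearest Fetub TSS. The related genes Hrg and Kng2, which follow Fetub in the cystatin superfamily cluster and encode the histidine-rich glycoprotein and a kininogen, had TSSs in unchanged regions of 2898 and 3976 bp. A DOWN region of 3699 bp lay next to the latter, 90635 bp past Fetub, over the start of the pseudogene Gm8128, and an UP region of 1042 bp lay between Hrg and Kng2. Of 12 regions around Ahsg and Fetub, 2 were DOWN, 2 were UP and 8 were unchanged.

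**Figure D2:**
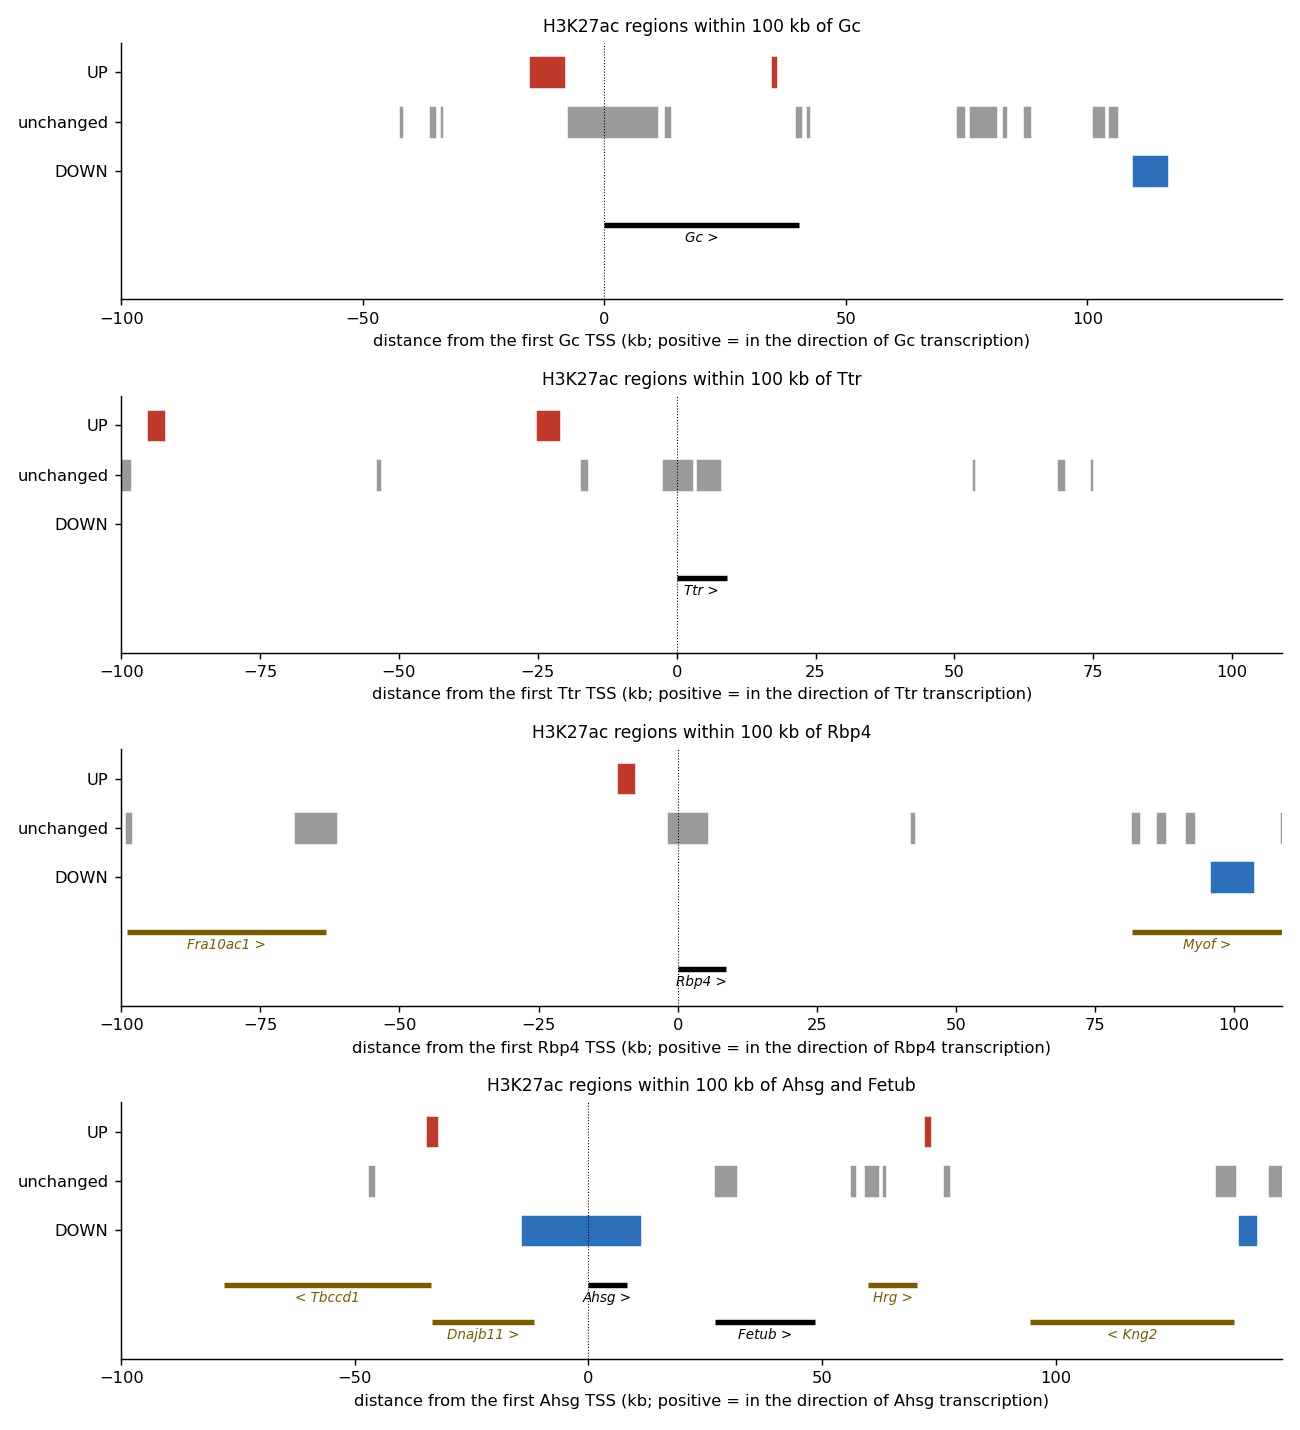
H3K27ac regions within 100 kb of Gc, Ttr, Rbp4, and Ahsg with Fetub, drawn to scale by distance from the first TSS (kb, x axis, in the direction of transcription) and by class (rows); carrier genes are black and other protein-coding genes with a TSS in a region are brown. Gc, Ttr and Rbp4 have an unchanged region at the start and an UP region upstream, and the DOWN region of 25256 bp covers Ahsg.

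Taking the 5 loci as 1 set, 7 of the 73 regions were DOWN (9.59%, 95% Wilson interval 4.72 to 18.5%), 10 were UP (13.7%, 7.61 to 23.4%) and 56 were unchanged (76.7%, 65.8 to 84.9%). The intervals cover counting error only, and neighboring regions are not independent. The shares over all 32196 regions, 10.5% DOWN and 17.1% UP, lie within them. The order of both shares depended on how regions were assigned. Among the 37 regions whose nearest protein-coding TSS was that of a carrier, 16.2% were DOWN and 8.11% were UP, while in windows of 25 kb 9.68% of 31 regions were DOWN and 22.6% were UP. Counted in base pairs, DOWN regions took 25.2% of the 202060 bp in regions around the carriers, against 18.0% over all regions. The Ahsg region alone made up 49.7% of these DOWN base pairs, and without it the share was 14.5%. UP regions took 14.6% of base pairs, against 21.2% over all regions.

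**Figure D3:**
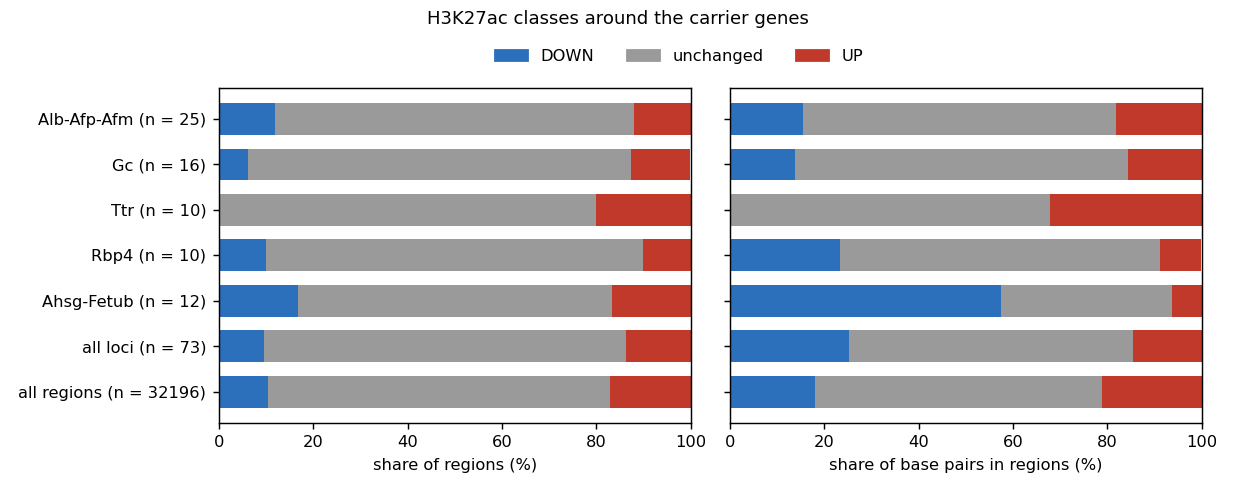
Share of H3K27ac regions (left, %) and of base pairs in regions (right, %) that were DOWN, unchanged or UP at each locus, over the 5 loci and over all regions; n is the number of regions. By number the 5 loci resemble all regions, and by base pairs Ahsg and Fetub have 57.4% DOWN while Ttr has none.

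Seen by position in genes, regions of each class lay mostly outside of the carriers. Of the 7 DOWN regions, 1 overlapped a carrier gene, 2 overlapped another gene and 4 overlapped none. Of the 10 UP regions, 1 overlapped a carrier gene, 7 overlapped another gene and 2 overlapped none. For the 56 unchanged regions these counts were 11, 25 and 20. Regions that hold a TSS made up 2 of the 7 DOWN, 2 of the 10 UP and 14 of the 56 unchanged regions. Width also differed by class. The median width was 3789 bp for DOWN, 2788 bp for UP and 1118 bp for unchanged regions around the carriers, in the same order as the medians of 2229, 1622 and 1155 bp over all regions. Of the 7 DOWN regions, 6 were wider than the median of all DOWN regions. Against the medians of their own classes, this held for 7 of the 10 UP and 27 of the 56 unchanged regions.

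**Figure D4:**
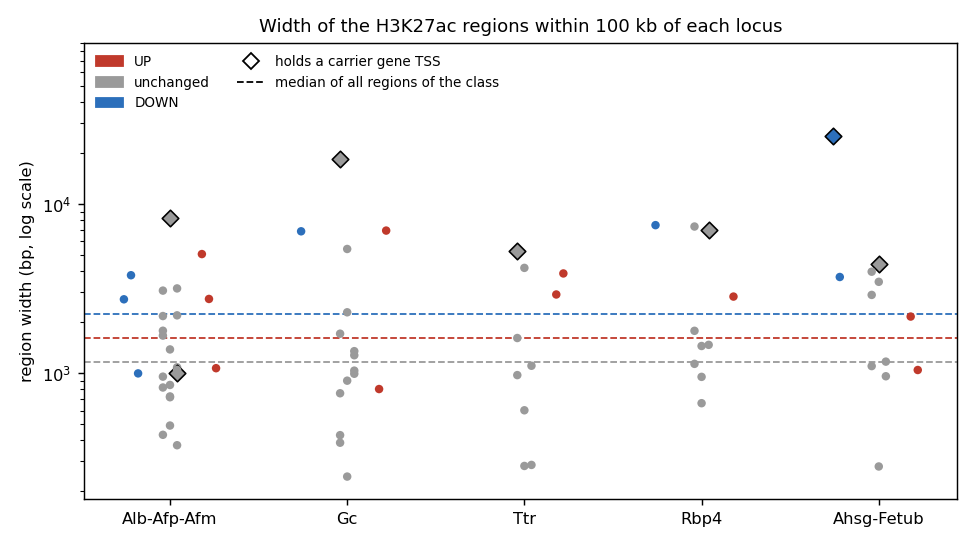
Width of each of the 73 regions (bp, log axis) by locus and class; diamonds mark regions that hold the TSS of a carrier gene, and dashed lines give the median of all regions of each class. The start site regions of Alb, Gc, Ttr, Rbp4 and Ahsg, of 5284 to 25256 bp, are the widest at their loci except at Rbp4, where regions in Myof and Fra10ac1 are wider.

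Width at the start sites was large for most of these genes. Alb, Gc, Ttr, Rbp4 and Ahsg fell in the widest 1 of 10 equal groups of regions with a TSS, those of 5163 bp or more. In that group 30.2% of 1065 regions were DOWN and 25.7% were UP. Of the 5 carriers in it, 4 were unchanged and 1 was DOWN. With 5 genes this was not tested. Alb, Gc, Rbp4 and Ahsg are also the 4 carriers that the study lists as liver identity (LIVER-ID) genes, defined from H3K4me3 in other samples. Afp, Afm, Ttr and Fetub are not on that list.

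The surroundings of the carriers held both directions. At least 1 DOWN region lay within 100 kb of 7 of the 8 genes, where this held for 46.4% of the protein-coding genes with a TSS in a region. Because Alb, Afp and Afm share a window, as do Ahsg and Fetub, these 7 genes stand for 4 loci. At least 1 UP region lay within 100 kb of 8 of the 8 genes, against 69.2%. Both kinds were present for 7 genes, against 32.6%. The windows were also rich in regions, with 9 to 22 per gene against a median of 8 over the protein-coding genes, and a window with more regions has more chances to hold a changed one.

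Ahsg, Afp, Alb, Fetub and Afm were nearer to a DOWN than to an UP region, at 0, 1.81, 10.3, 16.1 and 30.0 kb from the DOWN region. Gc, Rbp4 and Ttr were nearer to an UP region, at 8.36, 7.82 and 21.2 kb, while their nearest DOWN regions were 87.2 and 95.3 kb away for Gc and Rbp4 and outside of the window for Ttr. The medians over the protein-coding genes were 127 kb to a DOWN and 41.4 kb to an UP region. Alb was the farthest of the 8 from an UP region, at 97.5 kb, and 67.2% of genes were nearer to one.

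**Figure D5:**
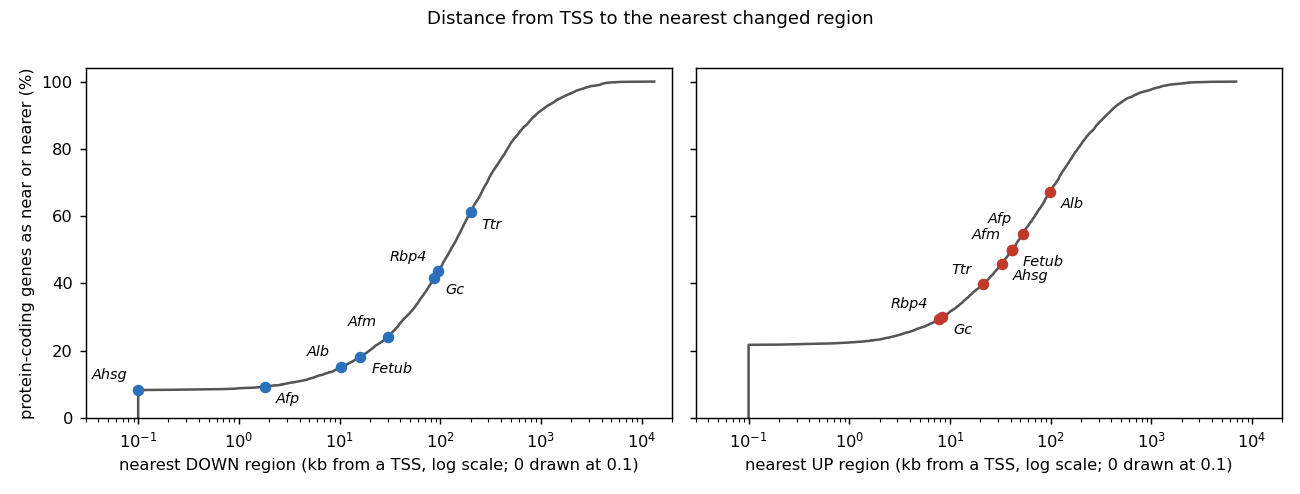
Distance from the nearest TSS of each carrier gene (labelled points) to the nearest DOWN (left) and UP (right) region, in kb on a log axis with 0 drawn at 0.1, on the cumulative share of protein-coding genes with a TSS in a region (line, %). Ahsg, Afp and Alb lie low on the DOWN curve, and Rbp4 and Gc lie lowest of the 8 on the UP curve.

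Genes that share the tasks of the carriers were read the same way. Of 22 other plasma carriers and binding proteins of liver, 19 had a TSS in a region. Transferrin (Trf), hemopexin (Hpx), haptoglobin (Hp), selenoprotein P (Selenop) and Pzp, a protease-binding macroglobulin, had one in a DOWN region, and Orm1, Azgp1 and Itih2 had one in an UP region. The other 11 were unchanged. These 5 DOWN and 3 UP genes of 19 stand beside 8.91% and 21.4% of all genes. Each of the 5 DOWN genes had a start site region of at least 5163 bp. So did each of the 3 UP genes and, of the 11 unchanged genes, Cp, Ambp and Itih1. Of all regions with a TSS that were this wide, 30.2% were DOWN and 25.7% were UP. Trf and Pzp had further TSSs in unchanged regions, so their widest start site region need not be the DOWN one. Among 14 genes of retinol and thyroid hormone handling, 7 had a TSS in a region. Aldh1a1, which makes retinoic acid, was DOWN, and Rdh10 and Adh1, which oxidize retinol, were UP, the latter with a further TSS in an unchanged region. Of 8 genes for receptors and uptake of albumin and the vitamin D binding protein, 4 had a TSS in a region, all unchanged.

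Transcription factors known to act at Alb or Afp were marked in both directions. A TSS of each of 16 such genes lay in a region. It was DOWN for 7, namely Hnf4a, Foxa1, Foxa2, Onecut1, Cebpd, Nr5a2 and Nfia, and UP for 4, namely Cebpb, Nfil3, Zbtb20 and Nfic. Zbtb20 is known as the repressor of Afp in adult liver, and Nfil3 as a repressor at D-boxes. Over all genes the shares were 8.91% DOWN and 21.4% UP, so that 4 of 16 is close to the UP share and 7 of 16 is above the DOWN share. Hnf4a, Foxa1, Foxa2, Onecut1 and Nfia had a start site region of at least 5163 bp. The 4 UP genes and the unchanged Foxa3, Cebpa and Nfib did as well. Of all regions with a TSS that were this wide, 30.2% were DOWN and 25.7% were UP, and the difference was not tested. Nr5a2, Nfia, Zbtb20 and Nfic had further TSSs in unchanged regions. The other 5, Foxa3, Cebpa, Dbp, Zhx2 and Nfib, had TSSs in unchanged regions only. Other secreted proteins of liver were counted beside the 1 of 7 carriers that was DOWN and the 0 that were UP, and beside 8.91% DOWN and 21.4% UP over all genes. Of 8 acute-phase genes with a TSS in a region, 1 was DOWN (Crp) and 1 was UP (Apcs). Some acute-phase genes were counted in other lists instead. Among these, Hp, Hpx and Fgb were DOWN, Orm1 was UP, and Cp, Itih4 and Fga were unchanged. Of 16 coagulation and complement genes, 4 were DOWN (F11, F12, C3 and Cfb) and 0 were UP. Of 11 apolipoprotein genes, 7 were DOWN (Apoa1, Apoc1, Apoc2, Apoc3, Apoc4, Apoe and Apof) and 1 was UP (Apoa5). Several of the apolipoprotein genes share a region, and the differences between these lists were not tested. The shares over all genes do not take region width into account.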

How the data were processed

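H3K27ac ChIP-seq was performed by the authors on 3 libraries per treatment, with 1 input library per treatment. Per their methods and the labels, reads were aligned to mm10 with Bowtie, duplicates and blacklisted stretches were removed, and broad regions were called with MACS2 on pooled libraries. Reads, extended to 200 bp, were counted per 150 bp bin, normalized by loess and tested as pairs with csaw 1.6.1, and the bins of a region were combined. The 3 deposited lists hold region positions in bp (other values, such as counts, signal or p-values, are not in them). No depth is given.

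Regions were joined to TSSs of GENCODE release M21 (mm10) with Python 3.11.15, numpy 2.4.6 and pandas 2.3.3, after the functions were tested on simulated intervals. A gene was given the class of every region over any of its TSSs. Windows reached 100 kb from the first and last base of a locus, and any overlap counted. Clusters joined regions across gaps of up to 12.5 kb. Shares have 95% Wilson intervals (scipy 1.17.1). LIVER-ID genes were taken from the study's list. Some genes and 1 motif of the lists are not reported here. Named genes were the 8 carriers, every other gene with a TSS in a region within 100 kb, and list genes in UP or DOWN regions; other list genes were named after their classes were seen. The carriers and the lists were chosen with earlier results of these data known. The gene C5 of the coagulation and complement list had no match in the annotation. Alternatives were the rule for a TSS, the window, the smallest region, base pairs in place of regions, the nearest gene, and the gap.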

Additional observations from a re-analysis of the deposited data

How the results depend on the processing

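No alternative changed the class of a start site region that was found. With at least 500 bp of region required on either side of a TSS, Afm joined Afp, so that 2 carrier genes had no region at the start and 5 had an unchanged one. By base pairs rather than regions, the DOWN share over all windows was 25.2% in place of 9.59%, which rests on the Ahsg region. The other alternatives gave DOWN shares within the interval of the main value, from 8.33% in windows of 50 kb to 16.2% for regions whose nearest protein-coding TSS was that of a carrier, and UP shares from 8.11% for the latter to 22.6% in windows of 25 kb. With gaps of up to 5 kb the Alb cluster of 12 regions broke up, as did those of Afm and Rbp4, while those of Gc and Ttr were kept with 3 and 2 regions. No paired analysis was possible because the lists hold no values per library. For the same reason no library could be left out and no stricter FDR applied. Depth, and with it the change that could have been detected at an unchanged region, is unknown.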

Other observations

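Beyond 100 kb, a DOWN region of 8818 bp, chr5:89274126-89282943, lay farther downstream of Gc. No protein-coding TSS was nearer to it than that of Gc. By the rule of the nearest protein-coding TSS, 37 regions belonged to the carriers, of which 6 were DOWN, 3 were UP and 28 were unchanged. Gc took 17 of these, Alb 9 and Rbp4 1.

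The upstream promoter of Rbp4 had 5 CpG dinucleotides, near the median of 6 over all promoters, while that of its second RefSeq start had 28, more than all but 6.84% of promoters. The second also held an AP-1 match (6.73% of promoters), a C/EBP match (9.57%), a TATA box (12.3%) and a half-site of the ERS response element (28.6%). Both lay in the same unchanged region.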
